A study of Mus musculus with 48 samples.

Results

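Tumours and the white blood cells inside them carry ligands that restrain or license T cells. The 10 genes described here encode such checkpoint ligands of the mouse: Cd274 (PD-L1), Pdcd1lg2 (PD-L2), Cd80, Cd86, Cd276 (B7-H3), Pvr (CD155), Nectin2 (CD112), Lgals9 (galectin-9), Icosl and Vsir (VISTA). They were chosen by name, and their symbols matched 10 of the 36854 genes of the count table, each by its Ensembl identifier. Messenger RNA had been sequenced from 48 mouse sarcomas on the 129/SvJae background, 16 allografts and 32 primary tumours. Primary tumours were induced at 6 to 10 weeks of age in p53FL/FL mice, whose p53 alleles can be deleted by Cre, by injecting an adenovirus carrying Cre into the gastrocnemius, a calf muscle, followed by 300 µg of the carcinogen MCA. Allografts came from 50000 cells of a single such line, 402230, placed with matrigel in the same muscle of syngeneic mice, whose age the labels do not give. At a volume of about 150 mm3, each mouse received 200 µg of either an isotype control or muDX400, a mouse antibody against PD-1, directly followed by 0 or 20 Gy of X-rays to the tumour-bearing leg. All tumours were taken 3 days later. The crossing of kind, dose and antibody made 8 groups, with 4 tumours in each allograft group and 8 in each primary group. The allografts therefore share 1 cell line, whereas the primary tumours were induced in place in mice that also received the virus and MCA.

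PD-1 is an inhibitory receptor of activated T cells, and PD-L1 and PD-L2 are its ligands. PD-L1 can be made by tumour cells, macrophages and dendritic cells, and interferon gamma, released by T cells and natural killer cells, is its best-known inducer, acting through JAK kinases and the transcription factor IRF1. CD80 and CD86, on antigen-presenting cells, engage the activating receptor CD28 and the inhibitory receptor CTLA-4, and ICOSL engages the costimulator ICOS. The antibody used here binds the receptor PD-1 and none of these ligands.

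Read totals ran from 31810461 to 54008259 per tumour. Levels are given as CPM, counts scaled to the library size and adjusted between libraries by TMM scaling. Before that adjustment, 1 CPM stood for about 31.8 to 54 reads. Trp53, the gene targeted in the primary tumours, was still read at 19.9 to 62.7 CPM over all tumours, and whole-gene counts of pieces that include host cells do not test its deletion. Of 7 markers of mesenchymal cells, the lineage of sarcoma, 6 or 7 exceeded 1 CPM in every tumour of each group. Skeletal muscle RNA was present throughout, with 8 muscle genes summing to 12.9 to 66243 CPM, and 3 irradiated primary tumours stood apart with sums above 20000 CPM: replicate 4 of the isotype group and replicates 4 and 8 of the anti-PD-1 group. Replicate 5 of the irradiated primary anti-PD-1 group had the lowest white blood cell signal of its group, with Ptprc (CD45, a marker of nearly all white blood cells) at 57.9 CPM against a group median of 165.

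Radiation was followed by higher expression of most of these ligands. Averaged over the 2 antibody arms, 6 of 10 members rose in irradiated allografts: Cd274, Cd80, Cd86, Lgals9, Icosl and Vsir. In this comparison 9.56% of all 17746 genes tested were called higher and 13.7% were called in either direction (called means an adjusted p below 0.05 in edgeR's quasi-likelihood test over all genes). In primary tumours 6 of 10 rose, namely Cd274, Pdcd1lg2, Cd80, Cd86, Lgals9 and Icosl, and Cd276 fell, against a background of 14.6% of genes called higher, 11.7% called lower and 26.3% called in all. The median log2 fold change over the 10 members was 0.88 in allografts and 0.85 in primary tumours, while the median over all genes tested was -0.01 and -0.00. Within single antibody arms the member counts were smaller, except in the primary isotype arm, where they were the same. In allografts 4 members rose in the isotype arm (4.4% of genes called higher, 5.14% called) and 3 in the anti-PD-1 arm (3.13% higher, 3.96% called). These shares rested on single tumours: leaving out 1 gave 1.63% (without replicate 2 of the unirradiated group) to 7.85% (without its replicate 3) of genes called with isotype, and 1.02% (without replicate 4 of the unirradiated group) to 7.05% (without replicate 4 of the irradiated group) with anti-PD-1. In primary tumours 6 rose and 1 fell in the isotype arm (7.85% of genes called higher, 6.64% lower, 14.5% in all), and 5 rose in the anti-PD-1 arm (6.06% higher, 7.92% in all).

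Several white blood cell markers moved with the ligands. Ptprc rose by 1.53 ± 0.22 on the log2 scale (SE) in irradiated allografts and by 0.98 ± 0.22 in irradiated primary tumours, averaged over the antibody arms. Its group medians were 128.47 and 184 CPM in unirradiated and 448 and 498 CPM in irradiated allografts, isotype before anti-PD-1, and 81.9, 111.97, 160 and 165 CPM in the matching primary groups. Of 10 macrophage markers 6 rose in allografts and 8 in primary tumours, of 6 T cell markers 0 were called in either kind, and of 8 muscle markers 0 rose in allografts and 6 in primary tumours. The summed muscle medians went from 1583 to 1230 CPM with isotype and from 1248 to 1718 CPM with anti-PD-1 in primary tumours, whose irradiated groups reached 40312 and 66243 CPM in single tumours. Of 7 neutrophil and monocyte markers 3 rose in allografts, and 4 of the 6 tested rose in primary tumours. Dendritic cell markers were mixed: of 9, 2 rose in allografts, and 3 rose and 1 fell in primary tumours, while their summed level had lower medians after 20 Gy in each arm (436 to 407 and 486 to 342 CPM in allografts, 416 to 354 and 481 to 330 CPM in primary tumours, isotype before anti-PD-1). No listed marker of any of these types was at 0 in every tumour. In pieces of whole tumour, fewer cells of a type and less RNA per cell cannot be told apart, and the part of these markers in the ligand differences was not tested.

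Cd274 lies on chromosome 19 (ENSMUSG00000016496, GRCm38 chr19:29367455-29388095, plus strand), and Pdcd1lg2 lies 22.823 kb beyond its end on the same strand (ENSMUSG00000016498, chr19:29410919-29471161). Lgals9, another ligand that rose in both kinds, lies on chromosome 11 (ENSMUSG00000001123, chr11:78962974-78984946, minus strand). Promoter windows of up to 250 bases before the RefSeq start (GRCm38.p6) were found for 8 of the 10 members, not for Cd86 and Pvr. They were searched on both strands for the interferon-stimulated response pattern (GAAA, NN and a further GAAA in 1 run), for its shorter form GAAANNGAA, which the longer one contains, and for the NF-kB consensus. The 3 windows with a match are shown 5′ to 3′ on the strand of the gene, with the matching letters in capitals. They were chosen by their match alone, and the windows of Cd80, Icosl and Vsir, which also rose, held none of these patterns.
Cd274, chr19:29367188-29367437: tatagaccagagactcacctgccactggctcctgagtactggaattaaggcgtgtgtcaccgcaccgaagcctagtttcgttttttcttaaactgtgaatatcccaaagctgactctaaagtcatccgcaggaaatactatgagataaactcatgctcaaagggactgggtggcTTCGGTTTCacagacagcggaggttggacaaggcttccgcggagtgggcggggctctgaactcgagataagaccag
Pdcd1lg2, chr19:29410669-29410918: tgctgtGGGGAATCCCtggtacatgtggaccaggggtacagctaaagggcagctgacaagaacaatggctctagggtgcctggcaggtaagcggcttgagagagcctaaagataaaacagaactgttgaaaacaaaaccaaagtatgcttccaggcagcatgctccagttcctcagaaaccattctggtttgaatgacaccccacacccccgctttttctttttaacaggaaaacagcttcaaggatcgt
Lgals9, chr11:78984947-78985174: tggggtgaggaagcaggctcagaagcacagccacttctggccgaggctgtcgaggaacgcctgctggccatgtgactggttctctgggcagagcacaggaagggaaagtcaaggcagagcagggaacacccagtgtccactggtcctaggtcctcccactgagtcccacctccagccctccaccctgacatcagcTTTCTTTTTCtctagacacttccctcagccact
The Cd274 window holds the shorter interferon pattern on its minus strand, 76 bases before the start, and 7.13% of the 32851 promoter windows of this table hold that pattern. The Lgals9 window holds the longer one on its minus strand, 55 bases before the RefSeq start, as do 2.98% of windows. Its printed letters stop after 228 bases, at the edge of the gene span given above and short of the RefSeq start. The Pdcd1lg2 window holds the NF-kB consensus on its plus strand, 244 bases before the start, as do 3.9% of windows. These matches describe letters in the windows only.

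Cd274 was the member that differed most with radiation in primary tumours. In allografts given isotype and 0 Gy, Cd274 was at 22.8, 26.3, 44.4 and 11.9 CPM in replicates 1 to 4. With 20 Gy and isotype it was at 76.2, 81.4, 89.8 and 101.99 CPM, and all 4 irradiated tumours were above all 4 unirradiated ones. The allografts given anti-PD-1 held 77.5, 21.1, 83.5 and 44.4 CPM without radiation and 111.68, 103.97, 157 and 164 CPM with it, again without overlap. In the primary isotype groups the lowest, median and highest tumours were at 3.15, 5.73 and 20.3 CPM without radiation and at 31.9, 51.5 and 101.54 CPM with it. In the primary anti-PD-1 groups these were 6.28, 11.7 and 26.9 CPM at 0 Gy and 10.9, 54.2 and 103.62 CPM at 20 Gy. Pooling the antibody arms, 14 of 16 irradiated primary tumours exceeded all 16 unirradiated ones, the others being replicates 5 and 8 of the anti-PD-1 group, and 6 of 8 irradiated allografts exceeded all 8 unirradiated ones.

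In edgeR's quasi-likelihood test Cd274 rose by 2.90 ± 0.42 on the log2 scale (SE) in the primary isotype arm (adjusted p = 5.63e-05) and by 2.28 ± 0.41 in the primary anti-PD-1 arm (adjusted p = 0.000986), which is 7.44-fold and 4.86-fold. In allografts it rose by 1.75 ± 0.40 in the isotype arm (3.37-fold, adjusted p = 0.0214). The estimate in the allograft anti-PD-1 arm was 1.28 ± 0.40 and missed the threshold (adjusted p = 0.0852), although DESeq2 called it (adjusted p = 0.0236). Averaged over the arms the rise was 1.52 ± 0.28 in allografts (adjusted p = 0.00216) and 2.59 ± 0.29 in primary tumours (adjusted p = 3.21e-07). The call in the allograft isotype arm depended on single tumours: it was lost without replicate 1, 2 or 4 of the unirradiated group or replicate 3 or 4 of the irradiated group, with log2 fold changes of 1.69, 1.73, 1.49, 1.72 and 1.67 and adjusted p of 0.0771, 0.0773, 0.073, 0.052 and 0.0602. It was also lost with all 48 tumours in 1 fit (1.72, adjusted p = 0.0831). The allograft groups also differed in the share of tumours with Xist above 10 CPM (1 of 4 in each unirradiated and 3 of 4 in each irradiated group) and in the first digit of the number in their titles, which was 4 in 0 and 1 unirradiated and in 3 and 1 irradiated tumours, isotype before anti-PD-1. With Xist or this digit as a covariate the averaged Cd274 rise in allografts was 1.75 ± 0.33 (adjusted p = 0.00507) and 1.80 ± 0.32 (adjusted p = 0.00300), and without the 3 tumours rich in muscle RNA the primary one was 2.65 ± 0.30 (adjusted p = 8.43e-07). In each comparison averaged over the arms, all members called kept their call whichever single tumour was left out.

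**Figure D1:**
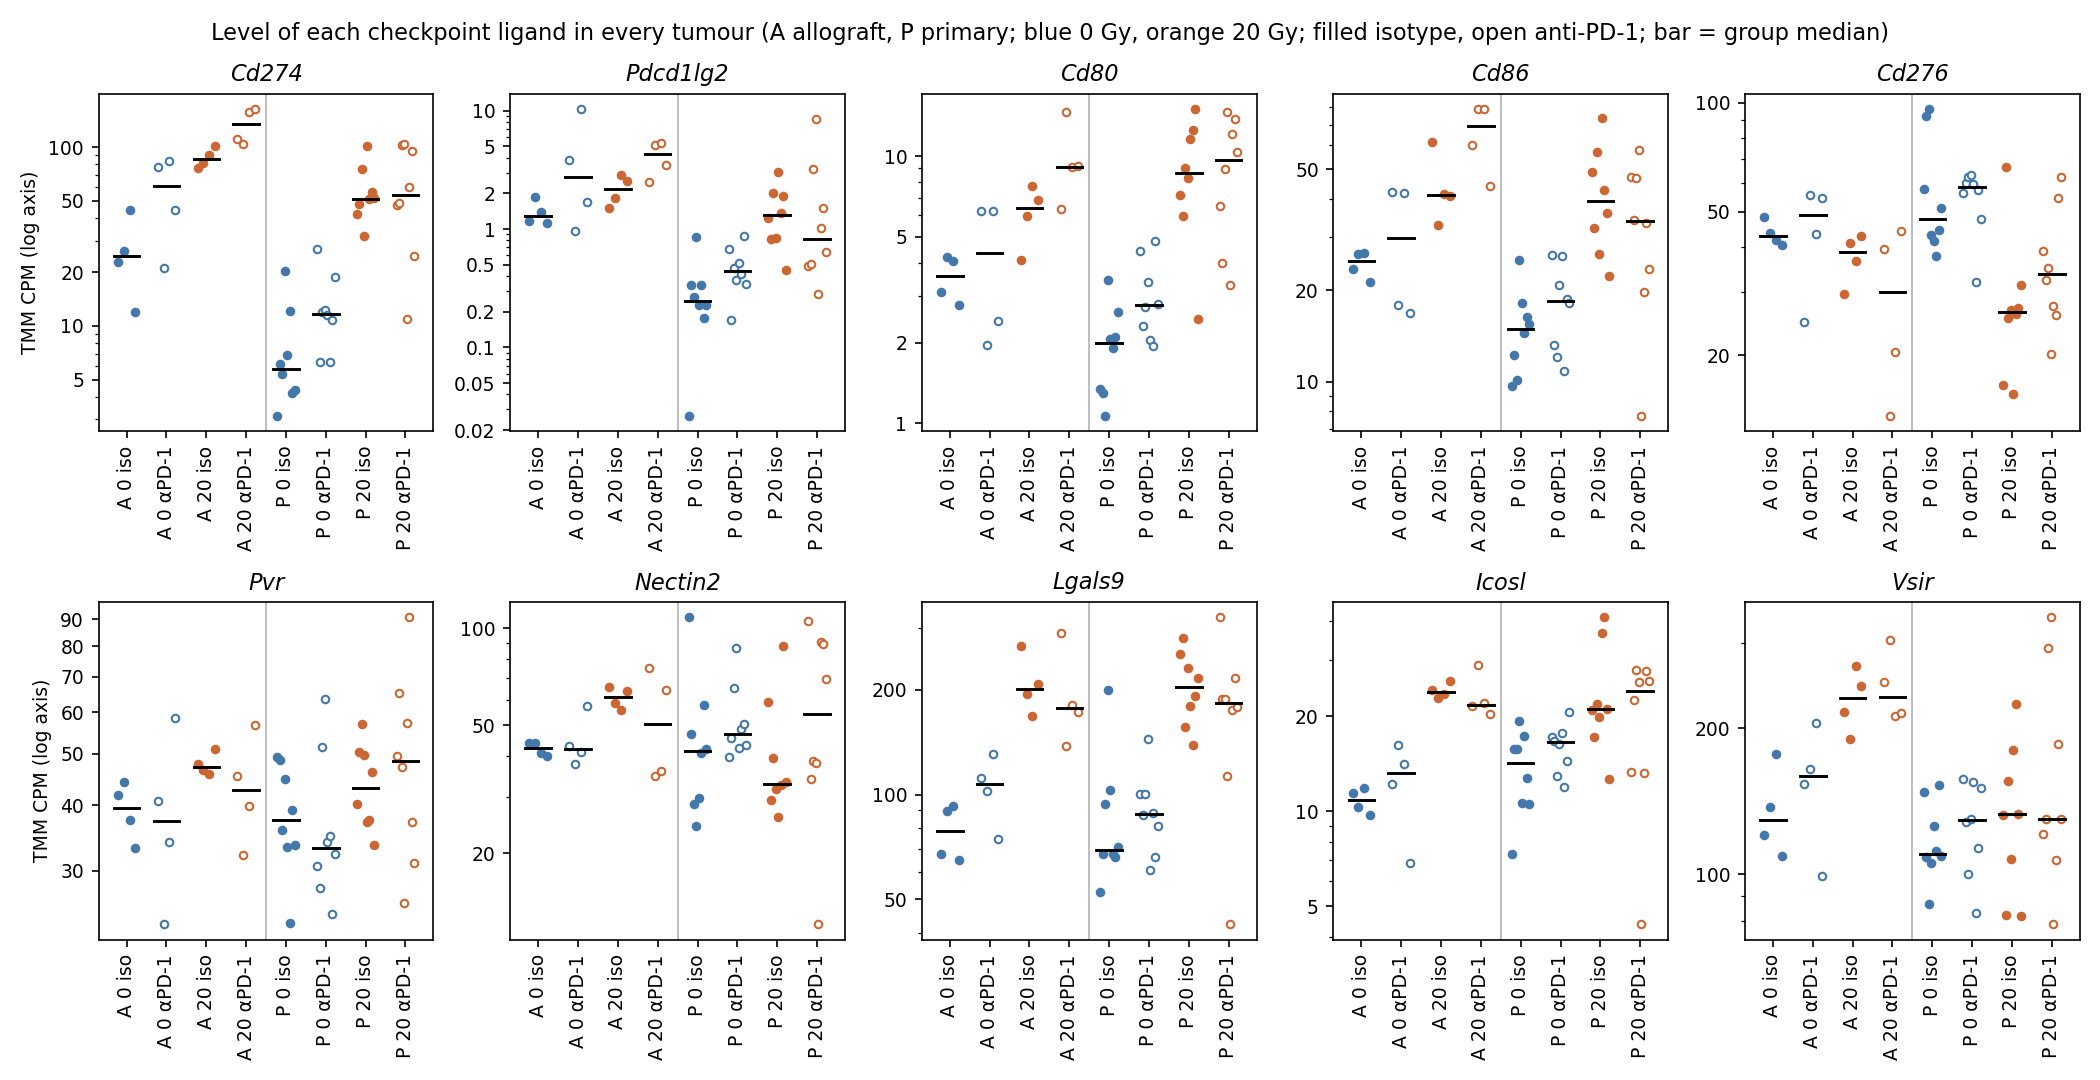
TMM-normalised CPM (log axis) of each of the 10 ligand genes in every tumour of the 8 groups, with 0 Gy in blue and 20 Gy in orange, isotype as filled and anti-PD-1 as open points, and a bar at the group median. Cd274 medians run from 5.73 CPM in unirradiated primary isotype tumours to 134.15 CPM in irradiated allografts given anti-PD-1, while the group medians of Pvr stay between 33.2 and 48.4 CPM.

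Pdcd1lg2, the other PD-1 ligand, was scarce, with the lowest level per kilobase of exon in 7 of 8 groups. In allografts it was at 1.17, 1.87, 1.39 and 1.13 CPM with isotype and 0 Gy and at 1.51, 1.81, 2.86 and 2.56 CPM with isotype and 20 Gy. With anti-PD-1 the values were 3.79, 0.962, 10.4 and 1.71 CPM at 0 Gy and 2.50, 5.14, 5.36 and 3.49 CPM at 20 Gy, so the irradiated tumours fell inside the range of the unirradiated ones. In primary tumours the lowest, median and highest values were 0.0264, 0.247 and 0.852 CPM at 0 Gy and 0.449, 1.31 and 3.05 CPM at 20 Gy with isotype. With anti-PD-1 they were 0.169, 0.441 and 0.877 CPM at 0 Gy and 0.283, 0.825 and 8.59 CPM at 20 Gy. Pdcd1lg2 rose in both primary arms, by 2.26 ± 0.60 (adjusted p = 0.0104) with isotype and by 2.13 ± 0.59 (adjusted p = 0.0238) with anti-PD-1. The second of these rested on replicate 4 of the irradiated anti-PD-1 group, the tumour richest in muscle RNA: without it the log2 fold change was 1.21 with an adjusted p of 0.168. It was also lost with only the 2 groups compared (2.15, adjusted p = 0.0678). In allografts its estimate averaged over the arms was 0.34 ± 0.38 (adjusted p = 0.638). A930007I19Rik overlaps Pdcd1lg2 on the opposite strand and was read at 0.410 to 3.52 CPM. It rose by 1.07 ± 0.21 in irradiated primary tumours (adjusted p = 0.000373). Since the sources used here do not say whether counting used strand, the Pdcd1lg2 values are uncertain. The same limit holds for Cd274, which AC119228.1 overlaps on the opposite strand. That gene is not in the count table, so its reads cannot be checked. Genes opposite Cd276, Pvr and Nectin2 were read at up to 0.748, 0.770 and 0.648 CPM.

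Cd80 (ENSMUSG00000075122, GRCm38 chr16:38455561-38496335, plus strand) and Cd86 (ENSMUSG00000022901, chr16:36603869-36666081, minus strand) encode the CD28 and CTLA-4 ligands of antigen-presenting cells. Allograft Cd80 was at 3.10, 4.19, 4.04 and 2.77 CPM with isotype alone and at 4.10, 5.96, 7.71 and 6.87 CPM after isotype and 20 Gy. Under anti-PD-1 it was at 6.24, 1.96, 6.26 and 2.41 CPM without and 6.33, 14.7, 9.08 and 9.18 CPM with radiation, and these groups did not overlap. Its primary medians were 1.99 CPM (range 1.07 to 3.43) and 2.76 CPM (1.94 to 4.81) at 0 Gy, and 8.66 CPM (2.47 to 15) and 9.64 CPM (3.31 to 14.7) at 20 Gy, isotype before anti-PD-1. In the primary tumours Cd80 rose by 2.21 ± 0.34 with isotype (adjusted p = 7.67e-05) and by 1.63 ± 0.33 with anti-PD-1 (adjusted p = 0.00283), and 13 of 16 irradiated tumours exceeded every unirradiated one. In allografts it rose by 1.04 ± 0.26 averaged over the arms (adjusted p = 0.0153) and was called in neither arm alone.

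Per kilobase of exon Cd86 had mean levels of 4.15 to 17.9 CPM over the groups, against 0.535 to 2.65 for Cd80. Its allograft values were 23.5, 26.3, 26.6 and 21.2 CPM with isotype at 0 Gy and 61.5, 32.7, 41.5 and 40.8 CPM with isotype at 20 Gy, with no overlap. With anti-PD-1 they were 41.9, 17.9, 41.6 and 16.8 CPM at 0 Gy and 60.0, 78.9, 78.5 and 44.0 CPM at 20 Gy, also with no overlap. In primary tumours its median went from 15 CPM (9.70 to 25.1) to 39.2 CPM (22.2 to 73.3) with isotype and from 18.4 CPM (10.9 to 26.2) to 33.7 CPM (7.73 to 57.6) with anti-PD-1. The tumour at 7.73 CPM was replicate 5, the one poor in Ptprc. Cd86 rose by 1.03 ± 0.21 in allografts (adjusted p = 0.00398) and by 1.22 ± 0.21 in primary tumours (adjusted p = 7.87e-05), averaged over the arms. By arm it rose by 1.5 ± 0.30 in primary isotype tumours (adjusted p = 0.00106), by 0.94 ± 0.30 in primary anti-PD-1 tumours (adjusted p = 0.0478) and by 1.18 ± 0.30 in anti-PD-1 allografts (adjusted p = 0.0400). The last 2 calls were borderline: 11 of 16 fits that left out 1 primary tumour lost theirs (log2 fold change 0.77 to 0.96), those without replicate 2, 3, 4, 6, 7 or 8 of the unirradiated or replicate 1, 2, 3, 4 or 7 of the irradiated group. In the allografts 5 of 8 such fits did (0.98 to 1.23), those without replicate 2 or 4 of the unirradiated or replicate 1, 2 or 3 of the irradiated group. The allograft call was also lost with the Xist covariate, only the 2 groups and all 48 tumours (1.26, 1.19 and 1.17, adjusted p = 0.0613, 0.192 and 0.152), and the primary one with no filter, either covariate, only the 2 groups and without the muscle-rich tumours (0.84 to 0.95, adjusted p from 0.0503 to 0.129). The summed level of the 10 macrophage markers ran from 1193 to 2930 CPM in unirradiated and 2591 to 4932 CPM in irradiated allografts, and from 1436 to 2958 CPM and 831 to 5066 CPM in primary tumours. The summed dendritic cell markers had lower medians after 20 Gy. Their sum ran from 325 to 550 CPM in unirradiated and 222 to 468 CPM in irradiated allografts. In primary tumours it ran from 358 to 687 CPM and 236 to 543 CPM. A sum is weighted to its most abundant genes, and of the single dendritic markers more were called higher than lower in both kinds. The part of macrophage and dendritic cell content in the Cd80 and Cd86 differences was not tested.

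Icosl (ENSMUSG00000000732, GRCm38 chr10:78069302-78083913, plus strand) separated irradiated from unirradiated allografts completely. Its values at 0 Gy were 11.4, 10.3, 11.9 and 9.74 CPM with isotype and 12.2, 16.2, 14.1 and 6.83 CPM with anti-PD-1. At 20 Gy they were 24.2, 22.7, 23.6 and 25.8 CPM with isotype and 21.5, 29.0, 22 and 20.3 CPM with anti-PD-1. It rose by 1.18 ± 0.21 (adjusted p = 0.00523) and 0.94 ± 0.21 (adjusted p = 0.0220) in these arms, the second call being lost without replicate 2 (0.80) or replicate 3 (0.96) of the irradiated group. The isotype call was lost with the title digit as a covariate (1.05, adjusted p = 0.0658) and with all 48 tumours in 1 fit (1.15, adjusted p = 0.0697), and the anti-PD-1 call with the Xist covariate, with only the 2 groups and with all 48 tumours (0.87, 0.95 and 0.93, adjusted p = 0.0504, 0.168 and 0.192). Primary tumours overlapped more, with medians of 14.2 CPM (7.30 to 19.3) and 21.0 CPM (12.7 to 41.1) at 0 and 20 Gy with isotype and of 16.6 CPM (11.9 to 20.6) and 24.1 CPM (4.38 to 28.0) with anti-PD-1. There it rose by 0.84 ± 0.27 with isotype (adjusted p = 0.0361) and by 0.60 ± 0.19 averaged over the arms (adjusted p = 0.0201), with an estimate of 0.37 ± 0.27 with anti-PD-1 (adjusted p = 0.436). The isotype call was lost in 6 of 16 fits that left out 1 tumour, with log2 fold changes of 0.70 to 0.85: replicate 1, 5, 7 or 8 of the unirradiated and replicate 5 or 6 of the irradiated group. It was also lost without a filter on low counts (0.83, adjusted p = 0.0630) and with the Xist covariate (0.82, adjusted p = 0.0585). Without the 3 tumours rich in muscle RNA the averaged rise was 0.57 with an adjusted p of 0.0515.

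Lgals9 encodes galectin-9, a sugar-binding ligand of the inhibitory receptor TIM-3 (Havcr2) and of other glycoproteins. It also separated the allografts completely by dose, from 67.3, 89.5, 92.7 and 64.7 CPM with isotype and 111.54, 102.26, 130.51 and 74.4 CPM with anti-PD-1 to 266, 194, 168 and 208 CPM and to 291, 137.40, 180 and 173 CPM. In primary tumours the medians were 69.2 CPM (52.5 to 199) and 204 CPM (138.40 to 282) at 0 and 20 Gy with isotype, and 88.0 CPM (60.6 to 143.92) and 183 CPM (42.5 to 322) with anti-PD-1. It rose in all 4 comparisons within an arm: by 1.44 ± 0.23 (adjusted p = 0.00290) and 0.93 ± 0.23 (adjusted p = 0.0367) in allografts, and by 1.21 ± 0.28 (adjusted p = 0.00337) and 1.0 ± 0.27 (adjusted p = 0.0226) in primary tumours, isotype before anti-PD-1. The allograft anti-PD-1 call was lost in 5 of 8 fits that left out 1 tumour (0.69 to 0.96), those without replicate 1, 2 or 4 of the unirradiated or replicate 1 or 3 of the irradiated group. It was also lost with the Xist covariate, only the 2 groups and all 48 tumours (0.86, 0.92 and 0.92, adjusted p = 0.0803, 0.148 and 0.227), and the primary anti-PD-1 call was lost with only the 2 groups (1.01, adjusted p = 0.0515).

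Vsir (ENSMUSG00000020101, GRCm38 chr10:60346851-60372684, plus strand) encodes VISTA, an inhibitory ligand and receptor abundant on myeloid cells. In allografts it was at 120.65, 137.86, 177 and 109.07 CPM with isotype and 154, 165, 205 and 99.2 CPM with anti-PD-1 at 0 Gy, and at 217, 190, 269 and 244 CPM and 249, 303, 212 and 215 CPM at 20 Gy, so that 7 of 8 irradiated tumours exceeded all unirradiated ones. It rose by 0.73 ± 0.15 averaged over the arms (adjusted p = 0.00457). The isotype arm alone gave 0.78 ± 0.22 with an adjusted p of 0.0497, and 7 of 8 fits that left out 1 tumour lost this call (0.67 to 0.86), the exception being the fit without replicate 3 of the unirradiated group. It was also lost with RLE scaling, no filter, either covariate and all 48 tumours (0.66 to 0.79, adjusted p from 0.0602 to 0.281). Primary medians stayed between 110.25 and 133.03 CPM in the 4 groups, with single tumours from 78.9 to 339 CPM, and the averaged estimate was 0.37 ± 0.17 (adjusted p = 0.116). Vsir lies within Cdh23, a gene of the opposite strand read at 0.207 to 5.47 CPM.

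Cd276 (ENSMUSG00000035914, GRCm38 chr9:58524298-58555437, minus strand) encodes B7-H3, a B7-family protein found on many solid tumours and on fibroblasts, whose receptor is not settled. It was the single member that fell. Its primary medians were 47.7 CPM (37.6 to 96.3) and 58.4 CPM (31.8 to 63.1) at 0 Gy, and 26.3 CPM (15.6 to 66.4) and 33.5 CPM (20.1 to 62.4) at 20 Gy, isotype before anti-PD-1, and 10 of 16 irradiated tumours were below all 16 unirradiated ones. It fell by 0.97 ± 0.25 on the log2 scale with isotype (adjusted p = 0.00954) and by 0.75 ± 0.18 averaged over the arms (adjusted p = 0.00247), while the anti-PD-1 arm gave -0.52 ± 0.25 (adjusted p = 0.202). Vim, 1 of the 7 mesenchymal markers, fell by 0.74 ± 0.14 in the same averaged comparison. The other 6 were not called, 5 of them with estimates below 0, and the list median was -0.33. The summed level of the 7 markers had medians of 16641 and 18596 CPM at 0 Gy and 9228 and 9314 CPM at 20 Gy in primary tumours, isotype before anti-PD-1. The part of mesenchymal cell content in the Cd276 difference was not tested. In allografts Cd276 was at 48.2, 43.8, 41.6 and 40.5 CPM with isotype alone, 29.6, 40.9, 36.4 and 42.7 CPM with isotype and 20 Gy, 24.7, 55.5, 43.3 and 54.6 CPM with anti-PD-1 alone and 39.3, 13.6, 20.4 and 44.2 CPM with both, and its averaged estimate was -0.38 ± 0.23 (adjusted p = 0.317).

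Pvr (ENSMUSG00000040511, GRCm38 chr7:19903578-19921160, minus strand) and Nectin2 (ENSMUSG00000062300, chr7:19716644-19750483, minus strand) encode adhesion proteins that bind the activating receptor CD226 and the inhibitory receptor TIGIT. Neither was called in any comparison. Group medians of Pvr ran from 33.2 to 48.4 CPM. In the allograft groups it was at 41.7, 44.3, 37.4 and 33.2 CPM with isotype alone, 47.8, 46.6, 45.9 and 51.2 CPM with isotype and 20 Gy, 40.7, 23.8, 34.0 and 58.4 CPM with anti-PD-1 alone and 45.4, 32.2, 39.9 and 56.7 CPM with both. The irradiated isotype allografts were thus all above their unirradiated counterparts, by a log2 estimate of 0.32 ± 0.23 (adjusted p = 0.513). Nectin2 showed the same order there, with 44.0, 44.0, 41.1 and 40.1 CPM at 0 Gy against 65.8, 58.4, 55.8 and 63.8 CPM at 20 Gy and an estimate of 0.55 ± 0.22 (adjusted p = 0.180). With anti-PD-1 the irradiated allografts split, with 75.3 and 64.4 CPM above and 34.6 and 36.0 CPM below all unirradiated ones, which were at 43.1, 37.8, 41.2 and 57.5 CPM. Primary Nectin2 spread from 12.0 to 108.02 CPM with no called difference, and its averaged estimate was 0.04 ± 0.24 (adjusted p = 0.929).

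**Figure D2:**
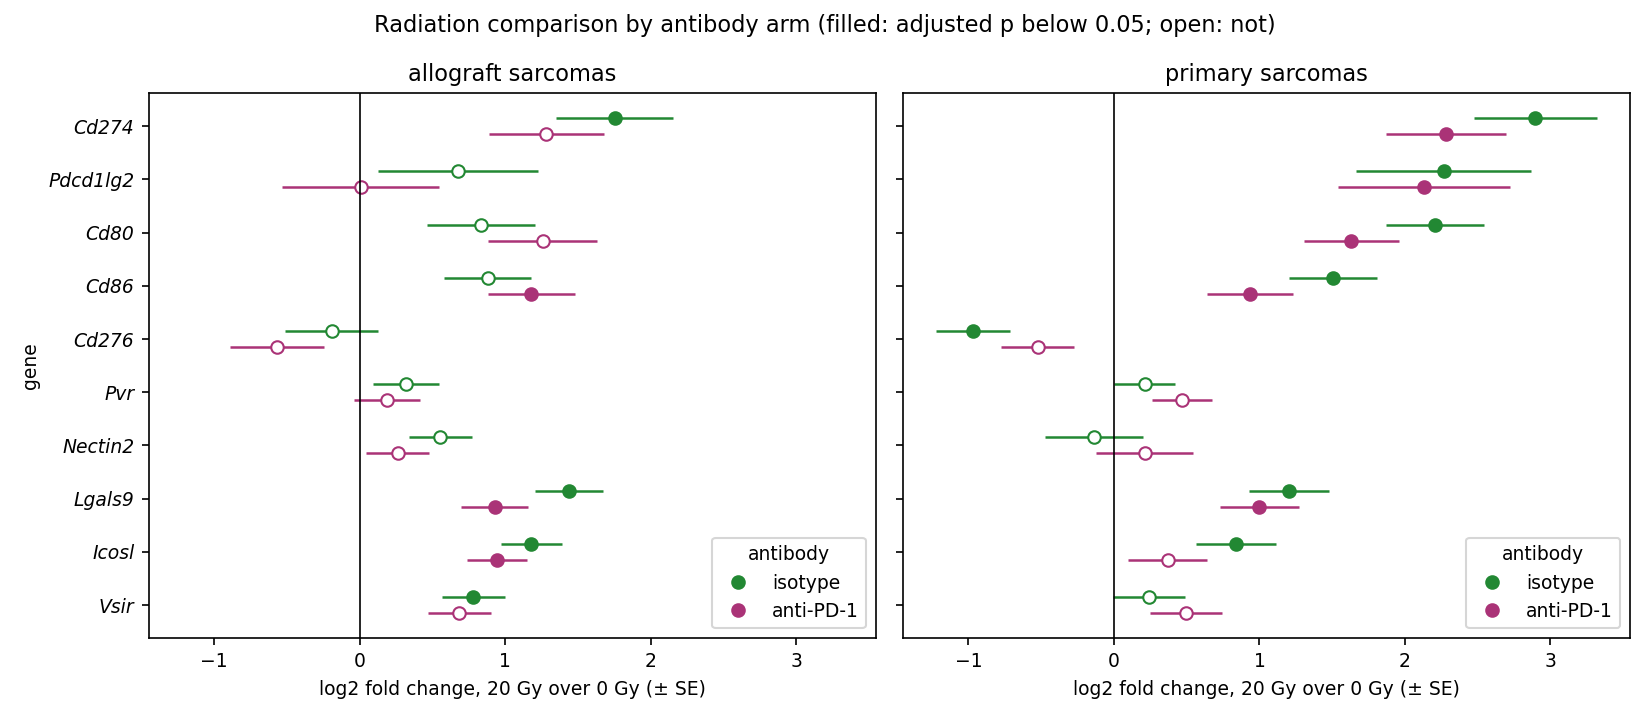
Log2 fold change of 20 Gy against 0 Gy with its SE for each of the 10 ligands, in allografts and primary tumours, with the isotype arm in green, the anti-PD-1 arm in purple and filled points where the adjusted p was below 0.05. Cd274 has the largest primary estimates (2.90 and 2.28), Cd276 lies below 0 in all 4 comparisons, and Pvr and Nectin2 have no filled point.

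The antibody alone gave no called gene. In allografts anti-PD-1 against isotype at 0 Gy gave Cd274 an estimate of 1.08 ± 0.40 on the log2 scale (unadjusted p = 0.0154, adjusted p = 1) and Pdcd1lg2 one of 1.58 ± 0.56 (unadjusted p = 0.0125, adjusted p = 1). Replicates 1 and 3 of the anti-PD-1 group, at 77.5 and 83.5 CPM of Cd274, were above all isotype allografts and the others, at 21.1 and 44.4 CPM, were not. At 20 Gy all 4 anti-PD-1 allografts exceeded the 4 isotype ones in Cd274, with an estimate of 0.61 ± 0.39 (adjusted p = 0.682). In primary tumours the Cd274 estimates were 0.73 ± 0.40 at 0 Gy (adjusted p = 1) and 0.11 ± 0.39 at 20 Gy (adjusted p = 0.948). The former was 0.50 without anti-PD-1 replicate 1 and 1.12 without isotype replicate 4. The latter changed sign without replicate 3 (-0.0357), 4 (-0.0463) or 7 (-0.00347) of the irradiated anti-PD-1 group. In edgeR's quasi-likelihood test 0 of 17746 genes were called in the allografts and 0 of 17770 in the primary tumours at either dose (0% of genes), although 299 and 682 genes in allografts and 412 and 1443 in primary tumours had an unadjusted p below 0.05 at 0 and 20 Gy. Those allograft counts, 1.68% and 3.84% of genes, ran from 0.673% (without isotype replicate 4) to 6.34% (without isotype replicate 3) and from 1.56% (without anti-PD-1 replicate 2) to 19.9% (without anti-PD-1 replicate 4) when 1 tumour was left out, and the last primary count reached 2337 without anti-PD-1 replicate 1. DESeq2 called 3 and 5 genes in the primary tumours at these doses, with no member among them.

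Tumours given both treatments were compared with those given isotype alone. In allografts 6 members rose (9.66% of genes called in either direction, 7.43% higher): Cd274 by 2.36 ± 0.41 (5.15-fold, adjusted p = 0.00300), Cd80 by 1.5 ± 0.38, Cd86 by 1.44 ± 0.30, Lgals9 by 1.33 ± 0.23, Icosl by 1.12 ± 0.21 and Vsir by 0.86 ± 0.22, with adjusted p of 0.0199, 0.00762, 0.00309, 0.00449 and 0.0199. Leaving out 1 tumour ended the Cd80 call in 3 of 8 fits (1.25 to 1.44, without replicate 1 or 4 of the isotype or replicate 2 of the combined group) and the Vsir call in 4 (0.75 to 0.89, without replicate 1, 2 or 4 of the isotype or replicate 2 of the combined group). With all 48 tumours in 1 fit the Icosl and Vsir calls were lost (1.12 and 0.86, adjusted p = 0.0507 and 0.119), and with the Xist covariate that of Vsir (0.76, adjusted p = 0.0623). In primary tumours 5 members rose (13.8% called, 8.78% higher): Cd274 by 3.01 ± 0.42 (8.04-fold, adjusted p = 6.16e-05), Pdcd1lg2 by 2.75 ± 0.61, Cd80 by 2.24 ± 0.34, Cd86 by 1.18 ± 0.30 and Lgals9 by 1.0 ± 0.27, with adjusted p of 0.00294, 8.59e-05, 0.00834 and 0.0142. The Lgals9 call was lost with only the 2 groups (1.06, adjusted p = 0.0586), and without replicate 4 of the irradiated anti-PD-1 group the Pdcd1lg2 rise was 1.83 (adjusted p = 0.0186). Whether the antibody changed the radiation difference was tested as an interaction, and 0% of genes were called in either kind. For Cd274 the interaction was -0.47 ± 0.55 in allografts (adjusted p = 0.866) and -0.62 ± 0.56 in primary tumours (adjusted p = 0.971). Leaving out 1 tumour moved these to between -0.85 (without replicate 3 of the unirradiated isotype group) and -0.21 (without replicate 3 of the unirradiated anti-PD-1 group) in allografts, and to between -1.01 (without replicate 4 of the unirradiated isotype group) and -0.38 (without replicate 1 of the unirradiated anti-PD-1 group) in primary tumours. There 269 genes in allografts and 756 in primary tumours had an unadjusted p below 0.05, none of them a member, and DESeq2 called 0 and 1 genes. The allograft count, 1.52% of genes, ran from 0.556% without replicate 4 of the unirradiated isotype group to 11.4% without replicate 4 of the irradiated anti-PD-1 group.

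Before radiation, primary tumours held less of both PD-1 ligands than allografts. With isotype, Cd274 averaged 7.80 ± 5.72 CPM (SD, n = 8) in primary tumours and 26.4 ± 13.5 CPM (SD, n = 4) in allografts, and the log2 difference of primary from allograft tumours was -1.76 ± 0.47 (adjusted p = 0.0324). Pdcd1lg2 averaged 0.306 ± 0.242 and 1.39 ± 0.337 CPM (-2.18 ± 0.52, adjusted p = 0.0198). With anti-PD-1 the differences were -2.10 ± 0.40 for Cd274 (adjusted p = 0.00804) and -3.11 ± 0.54 for Pdcd1lg2 (adjusted p = 0.00514). These were 2 of 10 members called in each comparison, both lower, where 3.99% of genes were called lower in either one and 10% and 8.94% in both directions. At 20 Gy 0 members were called, with Cd274 at -0.56 ± 0.25 with isotype (adjusted p = 0.240, 4.76% of genes called) and -1.13 ± 0.47 with anti-PD-1 (adjusted p = 0.253, 0.00566% called). T cell markers moved the same way: 5 of 6 were lower in unirradiated primary isotype tumours and 3 of 6 in those given anti-PD-1, and their summed medians were 20.2 and 37.9 CPM against 70.1 and 120.44 CPM in allografts. Ifng itself was lower, with log2 differences of -2.86 ± 0.70 (adjusted p = 0.0227) and -3.19 ± 0.59 (adjusted p = 0.00692). Other markers differed too in their summed medians, isotype before anti-PD-1. Those of neutrophils and monocytes were 118.01 and 158 CPM in primary tumours against 260 and 290 CPM in allografts, and mesenchymal markers 16641 and 18596 CPM against 7224 and 9950 CPM. Ptprc medians were also lower in primary tumours, and Ptprc was called in neither comparison. The part of T cell content and of these other cells in the Cd274 and Pdcd1lg2 differences was not tested.

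The isotype difference of Cd274 between kinds lost its call in 6 of 12 fits that left out 1 tumour: without allograft replicate 1, 2 or 3 (-1.84, -1.77 and -1.39) or primary replicate 2, 3 or 8 (-1.73, -1.72 and -1.67). It was also lost with the Xist covariate (-1.79, adjusted p = 0.0649). That of Pdcd1lg2 was lost without allograft replicate 2 (-2.01, adjusted p = 0.0737). Most titles of primary tumours carry a number starting with 4 (30 of 32) and most of those of allografts one starting with 5 (11 of 16). In the isotype groups at 0 Gy this digit and the kind cannot be told apart. With the digit as a covariate, the anti-PD-1 differences were -1.59 for Cd274 (adjusted p = 0.293) and -1.84 for Pdcd1lg2 (adjusted p = 0.211). The radiation difference was larger in primary tumours for Cd274 by an estimate of 1.09 ± 0.45 and for Pdcd1lg2 by 1.86 ± 0.64, averaged over the arms, but neither interaction passed over all genes (unadjusted p = 0.0207 and 0.00621, adjusted p = 0.461 and 0.320), and 0.0259% of the 19327 genes did. By arm the Cd274 interaction was 1.16 ± 0.64 with isotype (adjusted p = 0.544, 0.00517% of genes called) and 1.01 ± 0.64 with anti-PD-1 (adjusted p = 0.991, 0% called).

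Ordered by mean, Cd274 was lowest in unirradiated primary tumours (7.80 CPM with isotype, 13.1 ± 6.81 with anti-PD-1), followed by the unirradiated allografts (26.4 and 56.6 ± 29.3), the irradiated primary tumours (57.2 ± 21.7 and 61.8 ± 35.7) and the irradiated allografts (87.3 ± 11.3 and 133.995 ± 30.5, SD). Neighbours in this order overlapped except the last pair. Per kilobase of exon, which allows genes to be compared, Lgals9 was highest and Vsir next in all 8 groups, at mean levels of 36.8 to 97.9 and 23.6 to 48.8 CPM per kb. Cd274 had rank 8 of 10 in unirradiated primary isotype tumours, at 2.15 CPM per kb, and rank 3 in irradiated ones, at 15.8. With anti-PD-1 these were rank 7, at 3.62, and rank 4, at 17.1. In allografts it had rank 5 with isotype alone, at 7.28, and rank 3 in the other groups, at 15.6 to 37.0. Cd80 (0.535 to 2.65) and Pdcd1lg2 (0.156 to 2.14) held the last places in every group.

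Genes around this axis were described by lists. Of 11 receptors of the members, 3 rose in irradiated allografts averaged over the arms, and 2 rose and 1 fell in primary tumours, with list medians of 0.08 and 0.60 on the log2 scale. Over all genes 9.56% were called higher in allografts, and 14.6% higher and 11.7% lower in primary tumours, so the primary count of receptors is near that background. Selplg, whose product PSGL-1 can bind VISTA, rose by 0.98 ± 0.19 (adjusted p = 0.00280) and 1.2 ± 0.17 (adjusted p = 5.01e-06), and Havcr2, the TIM-3 gene, by 0.71 ± 0.17 (adjusted p = 0.0123) and 0.98 ± 0.21 (adjusted p = 0.000797). Pvrig, an inhibitory receptor of Nectin2, rose by 1.01 ± 0.25 in allografts (adjusted p = 0.0123), and Rgmb, which binds PD-L2, fell by 0.58 ± 0.15 on the log2 scale in primary tumours (adjusted p = 0.00353). Of 14 other costimulatory and coinhibitory ligands tested, 5 rose and 1 fell in allografts and 9 rose in primary tumours. Tnfsf4, the OX40 ligand, rose by 1.76 ± 0.28 and 3.25 ± 0.36 (adjusted p = 0.000773 and 2.14e-07), the Qa-1 gene H2-T23 by 1.23 ± 0.21 and 1.69 ± 0.23 (adjusted p = 0.00106 and 4.26e-06), and Cd40 by 1.5 ± 0.31 and 1.70 ± 0.30 (adjusted p = 0.00458 and 0.000103).

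Of 14 genes that lead from interferon to PD-L1 induction (among them the interferons' receptors, JAK kinases, IRFs and Ifng), 8 rose in irradiated allografts and 11 in irradiated primary tumours, and 0 fell in either, where 9.56% and 14.6% of all genes were called higher. In allografts Irf9 rose by 1.02 ± 0.11 (adjusted p = 8.52e-05), Stat2 by 1.33 ± 0.20 (adjusted p = 0.000443) and Ifnar2 by 0.48 ± 0.08 (adjusted p = 0.00126). In primary tumours Stat2 rose by 1.55 ± 0.18 (adjusted p = 5.50e-07), Irf2 by 0.69 ± 0.10 (adjusted p = 1.19e-05) and Irf1 by 1.26 ± 0.19 (adjusted p = 1.66e-05). Of 12 interferon gamma response genes 8 and 10 rose, with medians of 0.89 and 1.4. The chemokine gene Cxcl10 rose by 1.82 ± 0.34 in allografts (adjusted p = 0.00224) and 2.31 ± 0.36 in primary tumours (adjusted p = 1.91e-05), and Gbp5, a guanylate-binding protein gene, by 1.35 ± 0.30 (adjusted p = 0.00734) and 2.45 ± 0.27 (adjusted p = 2.55e-07). Of 13 genes of PD-L1 protein stability and trafficking, 1 rose and 1 fell in allografts and 1 rose and 2 fell in primary tumours. Their list medians were -0.04 and -0.11. Over all genes 13.7% and 26.3% were called in either direction, so these counts are near that background. Cmtm6, which keeps PD-L1 at the cell surface, rose by 0.52 ± 0.12 (adjusted p = 0.0106) and 0.34 ± 0.10 (adjusted p = 0.00926). Cdk4 fell by 0.52 ± 0.14 in allografts (adjusted p = 0.0194), and Usp22 and Cul3 fell by 0.41 ± 0.10 and 0.24 ± 0.09 in primary tumours (adjusted p = 0.00313 and 0.0372). Unirradiated primary isotype tumours held less than allografts of 6 of the 11 receptors and of 6 of the 12 interferon gamma response genes, and those given anti-PD-1 less of 3 and 10, where 3.99% of all genes were called lower in either comparison. With isotype the log2 difference was -2.33 ± 0.48 for Pdcd1 (adjusted p = 0.00964) and -2.75 ± 0.57 for Cxcl9 (adjusted p = 0.0102).

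Within groups, tumours with more Ptprc and Ifng held more of several ligands. Values were taken as log2(CPM + 1) and centred on the mean of their group, and each relation was tested by 100000 permutations within groups, 2-sided, over 40 relations with Benjamini-Hochberg adjustment. In the 32 primary tumours Cd274 followed Ptprc with Pearson's r = 0.716 and Spearman's rho = 0.634 (adjusted p of r = 8e-05), which was 0.664 without the 2 tumours farthest from the median of Ptprc. It followed Ifng with r = 0.733 and rho = 0.712 (adjusted p = 8e-05; 0.716 without 2 tumours). The value 8e-05 is the adjusted form of 1e-05, the smallest p that these permutations can give. In the 16 allografts Cd274 followed Ifng (r = 0.847, rho = 0.832, adjusted p = 0.00129; 0.844 without 2 tumours) and its relation to Ptprc missed the threshold (r = 0.658, adjusted p = 0.136). Ifng was low, with group medians of 0.0695 to 0.612 CPM in primary tumours and 1.01 to 3.58 CPM in allografts.

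**Figure D3:**
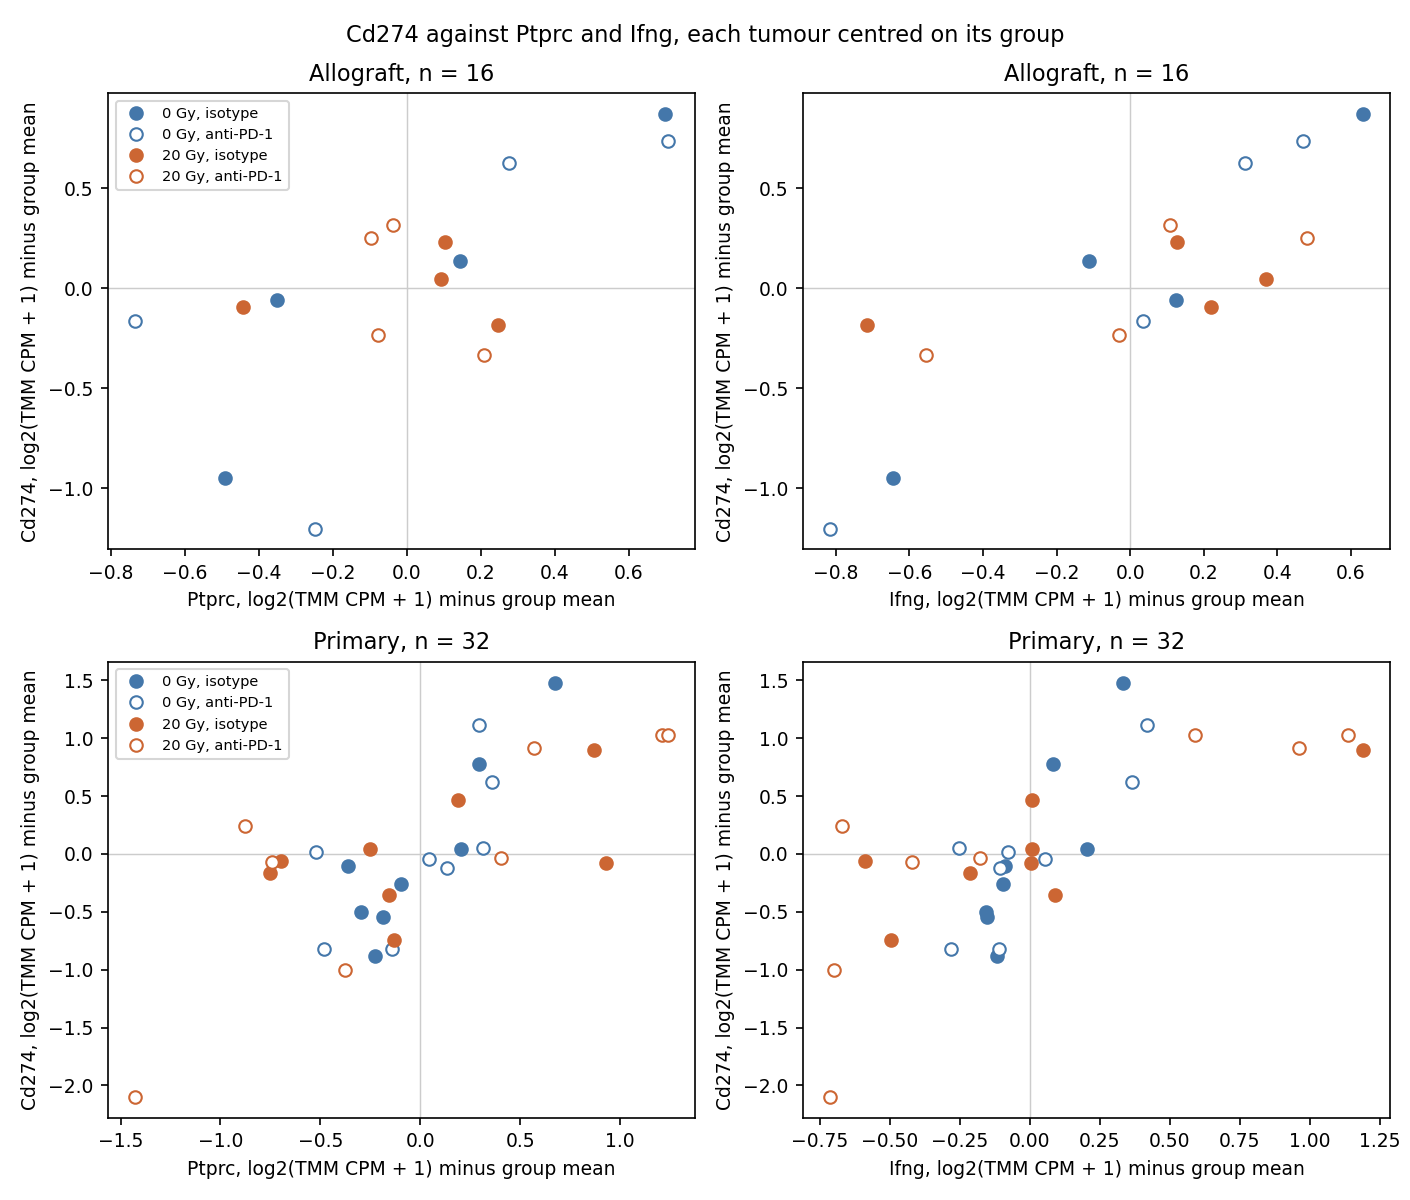
Cd274 against Ptprc and against Ifng in the 32 primary tumours and the 16 allografts, each axis in log2(CPM + 1) minus the mean of the tumour's group, 1 point per tumour. Primary points rise together in both plots (r = 0.716 and 0.733), and in allografts the relation to Ifng (r = 0.847) is closer than that to Ptprc (r = 0.658).

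Among the other members, Vsir (r = 0.843), Icosl (0.820), Cd86 (0.758), Pdcd1lg2 (0.735) and Cd80 (0.543) followed Ptprc in primary tumours, with adjusted permutation p of 8e-05, 8e-05, 8e-05, 0.000743 and 0.0303 and Spearman's rho of 0.733, 0.809, 0.679, 0.637 and 0.479. Without the 2 farthest tumours r was 0.777, 0.823, 0.716, 0.653 and 0.525. Pdcd1lg2 (0.801), Vsir (0.726), Cd86 (0.692) and Icosl (0.611) followed Ifng there, with adjusted permutation p of 0.000333, 0.00144, 0.00075 and 0.00893 and rho of 0.834, 0.685, 0.667 and 0.618, and r was 0.714, 0.655, 0.611 and 0.573 without 2 tumours. In allografts Vsir (r = 0.861, rho = 0.747) and Cd86 (r = 0.736, rho = 0.794) followed Ptprc, with adjusted permutation p of 0.00175 and 0.0102 and r of 0.753 and 0.582 without 2 tumours. No relation of Lgals9, Cd276, Pvr or Nectin2 was called in either kind, so 14 of 40 were called in all. Each point is 1 library, whose depth and cell content all its genes share.

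The ligands also varied with one another after centring, given here as descriptions over 32 primary and 16 allograft tumours. Cd274 and Pdcd1lg2 correlated with a Spearman's rho of 0.66 in primary tumours and 0.58 in allografts, Cd274 and Cd86 with 0.64 and 0.45, Pdcd1lg2 and Cd80 with 0.61 and 0.84, and Icosl and Vsir with 0.58 and 0.79. Pvr and Nectin2, neighbours on chromosome 7, had a rho of 0.17 in primary tumours and 0.81 in allografts, and Cd86 and Cd276 had -0.26 and -0.75. All pairs share the depth and cell content of their libraries.

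**Figure D4:**
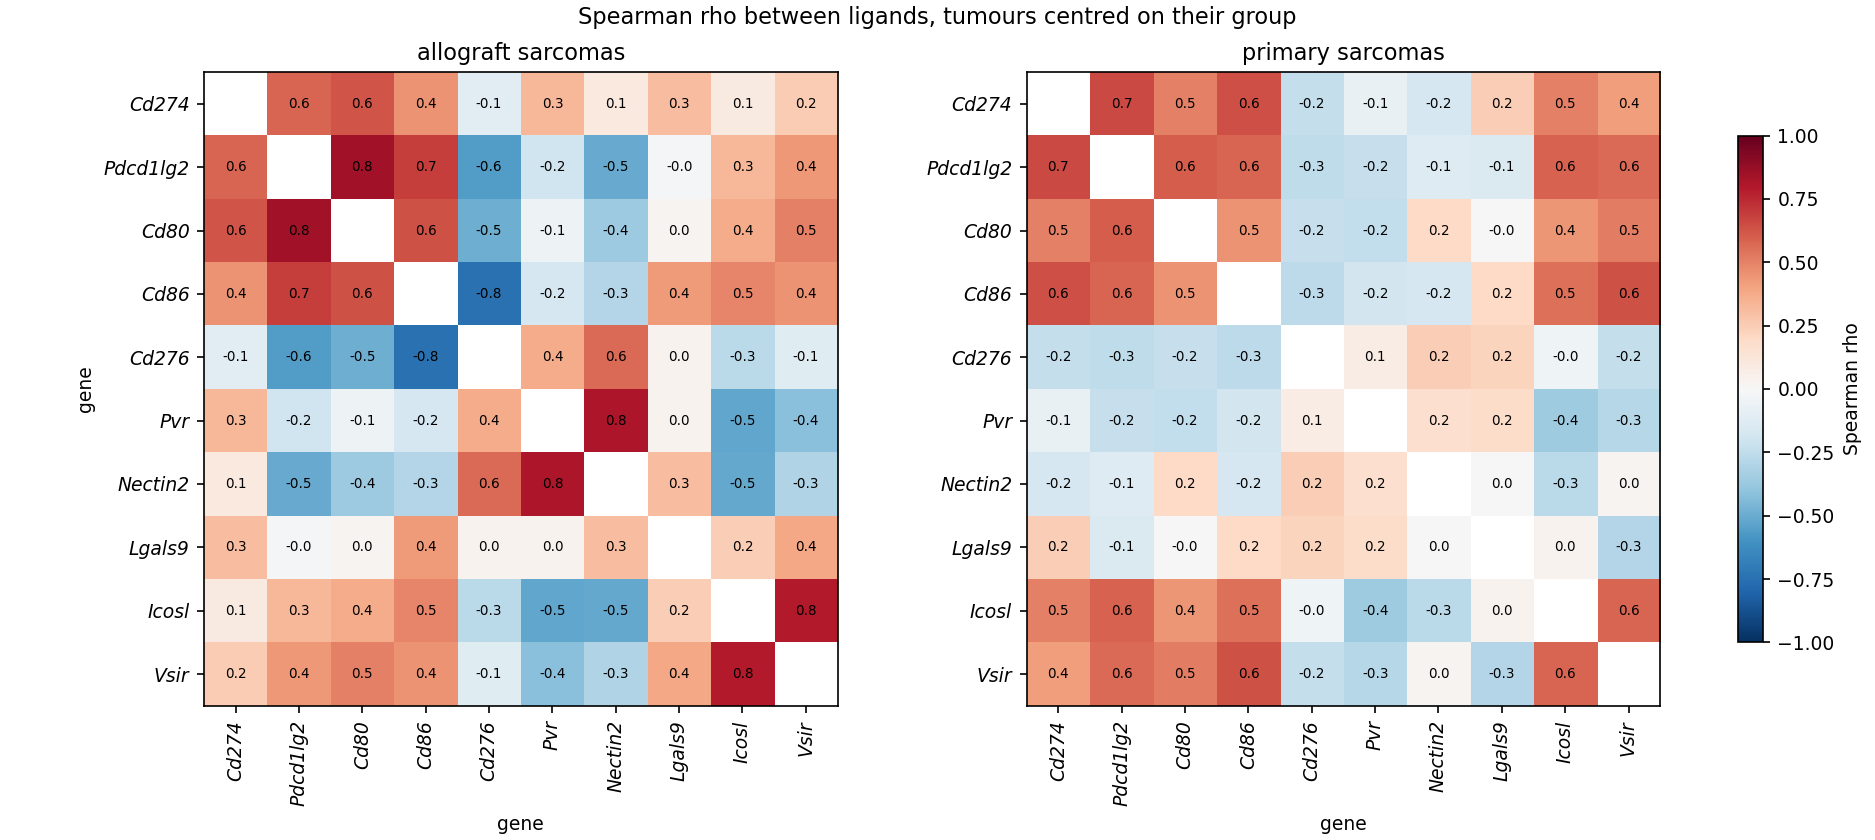
Spearman's rho between each pair of the 10 ligands after subtracting group means, in 16 allografts and in 32 primary tumours, coloured from -1 to 1. Pairs among the PD-1 ligands, Cd80, Cd86, Icosl and Vsir have a rho of 0.42 to 0.66 in primary tumours and of 0.09 to 0.84 in allografts, where Pvr and Nectin2 are also positive (0.81), and Cd276 is negative with Cd86 (-0.26 in primary tumours, -0.75 in allografts).

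The 3 genes most like each member were taken from the 11675 genes averaging 5 CPM or more by Spearman's rho over the 32 primary tumours, centred by group. For Cd274 they were Gm19684 (0.92), the MHC class I gene H2-T10 (0.87) and Tap1, a peptide transporter gene (0.87), with allograft values of 0.41, 0.63 and 0.75. For Pdcd1lg2 they were Gbp8 (0.84), Serpinb6b (0.83) and the T cell receptor complex gene Cd3g (0.82), at 0.84, 0.91 and 0.85 in allografts. For Cd80 they were Itgax (0.80), which encodes CD11c, Gpr171 (0.75) and Serpinb6b (0.75), at 0.23, 0.90 and 0.88, and for Cd86 the chemokine gene Cxcl16 (0.89), Lilra5 (0.88) and Cd300c2 (0.88), at 0.73, 0.41 and 0.85. Lgals9 was most like Isg20 (0.89), Ifit3 (0.87) and Ifitm3 (0.87), genes known from the interferon response, at 0.71, 0.83 and 0.75 in allografts.

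Icosl was most like Ctse (0.91), Sema4a (0.90) and Myo1g (0.89), at 0.52, 0.15 and 0.54 in allografts, and Vsir like Tm6sf1 (0.89), Rinl (0.88) and Igsf6 (0.88), at 0.64, 0.71 and 0.51. The genes nearest Cd276 were Ttyh2 (0.81), Lrrc14 (0.78) and Tbc1d20 (0.75), at 0.95, 0.86 and 0.69. Those nearest Pvr were Cfap43 (0.78), Pxdc1 (0.74) and Ubap1 (0.74), at 0.72, 0.75 and 0.49. Nectin2 had the least close neighbours, Gpr176 (0.64), Cacnb3 (0.63) and Vgll3 (0.61), the last with a rho of -0.33 in allografts against 0.61 and 0.54 for the other two.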

How the data were processed

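The authors deposited 1 table of whole-number read counts per gene, with 1 column for each of the 48 tumours and 0 columns of other samples. Per the labels' protocols, RNA above an integrity threshold was made into stranded poly(A) libraries. The submitters' processing notes name Trimmomatic 0.36, STAR, HTSeq and mm10, and the strand setting and annotation are not given in the sources used here. Symbols, positions and exon lengths came from GENCODE M21 (GRCm38), which named 36796 of 36854 genes. Counts were tested with edgeR 4.0.16 in R 4.3.3 (filterByExpr by group, TMM scaling, quasi-likelihood F test, Benjamini-Hochberg adjustment over all genes). The 4 groups of a kind entered 1 fit, comparisons of kinds used the 2 groups compared, and interactions of kind with dose used all 48 tumours. The SE is the log2 fold change divided by the square root of F. Levels are TMM-normalised CPM over all 48 tumours. Scripts were tested on simulated data. Relations and figures used Python 3.11.15 with numpy 2.4.6, pandas 2.3.3, scipy 1.17.1 and matplotlib 3.10.9.

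Replicate numbers follow accession order and pair nothing, and since the labels do not say which tumours came from separate mice, p-values measure the spread between these samples. Reads carry no molecular identifiers. A further promoter pattern that was searched is not reported here. The members and lists were chosen with earlier results of these data known. The naming rule gives levels of all 10 members, fold changes of Cd274 in every comparison and of other members where called (some others are given for contrast, chosen after their values were seen), the 3 genes most like each member, and list genes only if called and among the 3 smallest p of their list. Pdcd1 and Cxcl9 met it between kinds. Called radiation rises averaged over the arms and not given above were 1.18 and 1.10 on the log2 scale for Lgals9 in allografts and primary tumours. In primary tumours they were 2.20 for Pdcd1lg2 and 1.92 for Cd80, and in allografts 1.06 for Icosl. Alternatives were DESeq2 1.42.0, RLE scaling, no filter, only the 2 groups compared, all 48 tumours in 1 fit, the first digit of the title's number or Xist above 10 CPM as a covariate, other pseudocounts and leaving out each tumour. Leaving out the 3 tumours above 20000 summed muscle CPM was added after seeing the data.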

Additional observations from a re-analysis of the deposited data

Results flagged for a closer look

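In 5 of the 80 sets formed by 1 ligand in 1 group, a single tumour lay far from the rest, judged by its gap to the nearest tumour as a share of the group's range (Dixon's critical value 0.526 for 8 tumours). If values were normal, chance alone would flag about 1 in 20 such sets, and 5 of 80, pooled over both kinds, is near that rate. The test used CPM without a log, so that rate is only a rough guide. All 5 were high values in primary groups, and no allograft set passed its critical value of 0.829 for 4 tumours. Pdcd1lg2 was at 0.852 CPM in replicate 4 of the unirradiated isotype group, where the next tumour was at 0.340 CPM (gap share 0.620). Lgals9 was at 199 CPM in the same tumour against 102.895 CPM in the next (0.656), and Cd274 was highest there too, at 20.3 CPM. Nectin2 was at 108.017 CPM in replicate 1 of that group, with the next at 57.7 CPM (0.600). Cd276 was at 66.4 CPM in replicate 2 of the irradiated isotype group, with the next at 31.2 CPM (0.693). Pdcd1lg2 was at 8.59 CPM in replicate 4 of the irradiated anti-PD-1 group, the tumour with the largest summed muscle signal (66243 CPM), against 3.19 CPM in the next (0.650). Without that tumour the anti-PD-1 arm no longer gave a called rise of Pdcd1lg2.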

How the results depend on the processing

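No paired analysis was possible because replicate numbers were given in accession order and pair no tumours. For the values of Cd274, of other members where called and of the called relations, 420 alternative values kept direction and call while 35 lost the call, 1 gained it and 1 changed sign, and of the values that left out 1 tumour 909 kept both, 56 lost the call and 3 changed sign. Members not called are outside this tally, and their gained calls enter the counts per comparison. The difference of Cd274 between antibodies in irradiated primary tumours, 0.11, changed sign to -0.00897 without the tumours rich in muscle RNA and ran from -0.0463 to 0.286 when 1 tumour was left out. The cause of this and of the changes that follow was not tested, apart from the smaller number of tumours in fits that drop some.

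Members called by radiation in isotype allografts went from 4 to 2 with the title digit as a covariate to 1 with all 48 tumours in 1 fit and to 6 with only the 2 groups, and to 2 to 4 when 1 tumour was left out. In anti-PD-1 allografts 3 became 6 with DESeq2, 0 with the Xist covariate, 0 with only the 2 groups, 0 with all 48 tumours, and 0 to 5 without 1 tumour. In anti-PD-1 primary tumours 5 became 2 with only the 2 groups, 3 without the muscle-rich tumours and 3 to 5 without 1 tumour. Between kinds at 0 Gy with isotype 2 became 4 with DESeq2, 1 with the Xist covariate and 0 to 4 without 1 tumour, and with anti-PD-1 2 became 0 with the title digit. With isotype the digit separates the kinds fully, and that fit was not run. The 6 and 7 members called by radiation averaged over the arms ran from 6 to 7 and from 7 to 8. With both treatments, 6 members in allografts became 7 with DESeq2 or only the 2 groups, 5 with the Xist covariate, 4 with all 48 tumours and 4 to 6 without 1 tumour, and 5 in primary tumours became 6 without the muscle-rich tumours, 4 with only the 2 groups and 5 to 7 without 1 tumour.

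Counts over all genes also moved. Without 1 tumour, genes called by radiation ran from 294 to 1415 (912 with all tumours) in isotype allografts, 184 to 1275 (703) in anti-PD-1 allografts, 1706 to 3091 (2575) and 896 to 1928 (1407) in isotype and anti-PD-1 primary tumours and 919 to 2320 (1714) in allografts given both treatments. Between kinds they ran from 732 to 2187 (1738) and 634 to 1921 (1560) at 0 Gy and from 260 to 1150 (839) and 0 to 239 (1) at 20 Gy, and in the interactions of kind with dose from 0 to 2 (1) and 0 to 21 (5). The count moved by over 1.5 times in 7 of 8, 5 of 8, 1 of 16, 1 of 16, 3 of 8, 3 of 12, 2 of 12, 4 of 12 and 8 of 12 of these fits, interactions aside. DESeq2 called 1530 genes where edgeR called 912 (radiation, isotype allografts), 1664 for 703 (anti-PD-1 allografts), 2626 for 1714 (both treatments, allografts), 2188 for 1407 (anti-PD-1 primary tumours), 2868 for 1738 and 2756 for 1560 (kinds at 0 Gy), 1875 for 839 and 1005 for 1 (kinds at 20 Gy), and 5, 3 and 69 for 1, 0 and 5 (kind with dose, by arm and averaged). The title digit gave 196 genes for 912 in isotype allografts, 339 for 1560 between kinds with anti-PD-1 and 0 for 1 and 0 for 5 in the interactions, and the Xist covariate 500 for 912, 2 for 1 between kinds at 20 Gy with anti-PD-1, and 0 for 1 and 1 for 5 in the interactions. All 48 tumours in 1 fit gave 372, 1397 and 851 genes in allografts (isotype, averaged, both treatments; 912, 2430 and 1714 before), 0.595% of genes in anti-PD-1 allografts (3.96% before), 2156 for 1407 in anti-PD-1 primary tumours and 1309 for 1 between kinds at 20 Gy with anti-PD-1. Only the 2 groups gave 1 for 703, 1075 for 1714, 822 for 1407 and 1384 for 2446 (both treatments, primary tumours). Leaving out muscle-rich tumours gave 809 for 1407, 1527 for 2446, 0.78% of genes for 0.00566% between kinds at 20 Gy with anti-PD-1 and, in the interactions, 0 for 1 and 1 for 5, and no filter or RLE gave 0 for 1 and no filter 1 for 5. The share of called genes that were higher, 69.8% in allografts averaged over the arms, was 59.4% with DESeq2 and 81.0% with all 48 tumours. In isotype primary tumours it was 54.2%, against 64.7% with no filter and 64.9% with only the 2 groups. In anti-PD-1 allografts it was 79.1%, against 60.5% with DESeq2 and 90.4% with all 48 tumours. In allografts given both treatments it was 76.9%, against 87.4% with no filter, 88.8% with only the 2 groups and 93.7% with all 48. In primary tumours given both it was 63.8%, against 73.9% without muscle-rich tumours, and between kinds at 0 Gy with anti-PD-1 it was 55.3%, against 76.1% with the title digit.

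Of the 40 relations with Ptprc and Ifng, 14 were called with a pseudocount of 1, 15 with 0.1 and 14 with 5. Pdcd1lg2 and Ifng lay below 1 CPM in all 16 unirradiated primary tumours, where few reads limit their precision. The single-arm comparisons of allografts rested on 4 tumours in a group.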
